A study of Oryza sativa Japonica Group with 6 samples.

Results

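NAC20 (LOC_Os01g01470), NAC26 (LOC_Os01g29840), NF-YB1 (LOC_Os02g49410) and NF-YC12 (LOC_Os10g11580) are transcription factors that regulate starch and storage protein genes in the rice endosperm. They were taken by locus name, 4 genes of 55983 listed. Their transcripts were measured in grains of the wild-type rice line Zhenong 34 (3 libraries) and of the sgs3 mutant (3 libraries), whose treatment label reads EMS, a chemical mutagen. Wild-type libraries carry the treatment label Control. The labels give neither the stage of the grains nor the plants behind each library. The p-values therefore cover the variation seen among these 6 libraries, part of which may be technical.

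NAC proteins are a plant family named for a shared DNA-binding domain at the amino end. In rice, NAC20 and NAC26 are closely related endosperm factors that act redundantly on glutelin, globulin and starch synthesis genes. NF-Y is a trimer of A, B and C subunits that binds CCAAT boxes in promoters, and its B and C subunits pair through histone-like folds. NF-YB1 and NF-YC12 are such B and C subunits expressed in the endosperm, and they are known to act on sucrose transport and on the amylose gene Wx.

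The deposited table annotates NF-YB1 under that name. It gives NF-YC12 only as similar to an Arabidopsis NF-YC subunit. Both NAC genes have names of Arabidopsis NAC proteins in the main description, and a further description of NAC26 reads NAC transcription factor ONAC010-like. By locus name NAC20 and NAC26 are on chromosome 1, NF-YB1 on chromosome 2 and NF-YC12 on chromosome 10. The table holds TPM, a transcript abundance scaled for gene length and for each library's total. TPM keeps no read depth, so the counting error behind each value is unknown. All 4 genes reached 1 TPM in at least 3 libraries, as did 16352 genes in all, and were tested.

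Libraries differed beyond the groups. The 5 markers of starchy endosperm, led by glutelin A1 and alpha-globulin, were detected in every library. They summed to between 28268 and 86622 TPM in wild-type libraries, against between 86666 and 102143 TPM in the mutant, with wild-type replicate 1 lowest. The 4 embryo markers summed to between 1010 and 4127 TPM in wild-type libraries, against between 2794 and 3764 TPM in the mutant. The 6 green tissue markers summed to between 5.53 and 197 TPM over all 6 libraries, and wild-type replicate 1 (156 TPM) and mutant replicate 2 (197 TPM) were highest. One green tissue marker was listed at 0 in mutant replicate 1, and no other marker was at 0. The part of these differences in the results was not tested. In bulk grain a change in the share of cells of a type and a change in RNA per cell cannot be told apart.

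The median log2 fold change of all tested genes, mutant against wild type on log2(TPM + 1), was -0.86. Median-of-ratios scaling, which sets each library by its typical gene, brought it to -0.012. Each change is therefore given on both scales.

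Both NAC genes had a higher mean TPM in the mutant, and neither passed the test on TPM. NAC26 measured 263.08, 308.77 and 217.19 TPM in wild-type libraries, against 505.5, 461.12 and 536.95 TPM in mutant libraries, in the order of replicates 1, 2 and 3. The groups did not overlap, and the lowest mutant library was above the highest wild-type library. Groups stood apart in this direction for 3.68% of tested genes. The means were 263 ± 45.8 and 501 ± 38.1 TPM (SD, n = 3 each). In limma's test over all genes NAC26 gave a log2 fold change of 0.94 (SE 0.37, 95% interval 0.09 to 1.79) and did not pass (adjusted p = 0.0767). Scaling gave 2.03 (SE 0.45, limma adjusted p = 0.0635), again without overlap, as for 17.0% of tested genes. This factor's change on TPM was larger than that of 96.8% of tested genes.

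NAC20, the less abundant of the pair, measured 165.74, 109.4 and 91.96 TPM in wild-type libraries, against 200.37, 162.91 and 243.07 TPM in mutant libraries. The groups overlapped slightly, because wild-type replicate 1 lay just above mutant replicate 2. Its log2 fold change on TPM, 0.75 (SE 0.39, 95% interval -0.13 to 1.62), did not pass (limma adjusted p = 0.141). Scaled values of NAC20 were 84.2, 106 and 59.9 in wild-type libraries, against 414, 233 and 256 in mutant libraries, with no overlap. On that scale NAC20 rose by 1.83 (SE 0.36, limma adjusted p = 0.0477), where 1.61% of tested genes rose, 1.03% fell and 2.64% passed in all. The call held in 1 of 6 scaled fits that leave out a library, the one without mutant replicate 3 (limma adjusted p = 0.0370). Without any other library, wild-type or mutant, adjusted p-values from limma lay between 0.0541 and 0.192. The share of all tested genes that pass in each of these scaled fits is not given here. No other of the 4 factors passed on either scale. On TPM 0 of the 4 passed, where 1.55% of tested genes rose, 26.3% fell and 27.8% passed in all. An unadjusted limma p under 0.05 was found for 2 of the 4, NAC26 and NF-YC12, and for 51.5% of all tested genes. Without a mean-variance trend both of these passed on TPM, with limma adjusted p = 0.0497 for NAC26 and adjusted p = 0.0453 for NF-YC12. The share of all tested genes that pass without the trend is not given here, so this shows nothing particular to these factors.

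Both NF-Y subunits had a lower mean TPM in the mutant, neither passed, and for both the sign of the fold change turned after scaling. NF-YC12, a C subunit, measured 404.13, 561.36 and 488.43 TPM in wild-type libraries, against 205.74, 225.41 and 276.11 TPM in mutant libraries. The groups did not overlap, and the mutant was lower, as it was for 52.6% of tested genes. Its log2 fold change of -1.03 (SE 0.38, 95% interval -1.89 to -0.18) missed the threshold (limma adjusted p = 0.0626) and differed from the median of all genes by -0.18. Scaling gave 0.058 (SE 0.43, 95% interval -0.96 to 1.08, limma adjusted p = 0.935). On that scale the groups overlapped, while 20.4% of tested genes were lower in the mutant without overlap.

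NF-YB1, the B subunit, was the least abundant of the 4 in each library. It measured 89.33, 60.67 and 40.54 TPM in wild-type libraries, against 27.65, 43.71 and 60.26 TPM in mutant libraries. The groups overlapped on both scales, and mutant replicate 3 nearly equalled wild-type replicate 2. On TPM its log2 fold change of -0.52 (SE 0.43, 95% interval -1.50 to 0.46) did not pass (limma adjusted p = 0.332), nor did the scaled value of 0.55 (SE 0.32, 95% interval -0.20 to 1.31, adjusted p = 0.261). These intervals hold both a rise and a fall, so neither direction was detectable for NF-YB1 with 3 libraries a group.

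**Figure D1:**
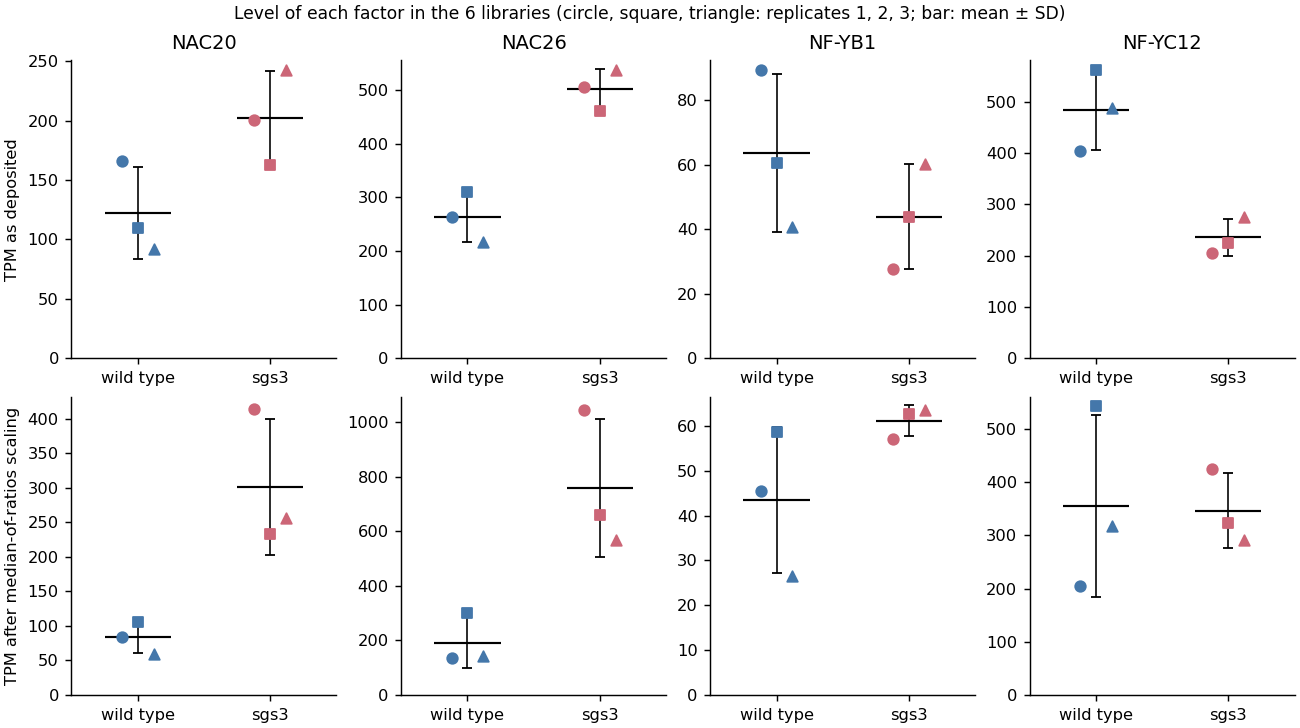
TPM of each factor by library (vertical axes, starting at 0) for wild type and sgs3, as deposited in the upper row and after median-of-ratios scaling in the lower row. Points are replicates, the bar is the mean and the whiskers are the SD (n = 3). NAC26 is apart between groups in both rows, while NF-YC12 is lower in the mutant in the upper row only.

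Since TPM is scaled for length, levels can be ordered between genes. In the wild type the order of mean TPM was NF-YC12 (485 ± 78.7), NAC26 (263 ± 45.8), NAC20 (122 ± 38.6) and NF-YB1 (63.5 ± 24.5; SD, n = 3), and no neighbours in that order overlapped over the libraries. In the mutant NAC26 came first (501 ± 38.1), then NF-YC12 (236 ± 36.3), NAC20 (202 ± 40.1) and NF-YB1 (43.9 ± 16.3; SD, n = 3). There NF-YC12 and NAC20 overlapped, and the other neighbours did not. NF-YC12 exceeded NAC26 in all 3 wild-type libraries, and NAC26 exceeded NF-YC12 in all 3 mutant libraries.

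A ratio of TPM within a library does not depend on the scaling between libraries, and each ratio of a NAC gene to an NF-Y gene was higher in the mutant without overlap. NAC26 over NF-YC12 was 0.65, 0.55 and 0.44 in wild-type replicates 1, 2 and 3, and 2.46, 2.05 and 1.94 in mutant replicates 1, 2 and 3. NAC20 over NF-YC12 ran from 0.19 to 0.41 in wild-type libraries and, higher, from 0.72 to 0.97 in the mutant. Set against NF-YB1, NAC20 ran from 1.80 to 2.27 and from 3.73 to 7.25, and NAC26 from 2.95 to 5.36 and from 8.91 to 18.3. The 4 ratios share genes and are not independent of each other. Ratios inside each family overlapped between the groups. NAC26 over NAC20 was 2.26 ± 0.62 in wild-type libraries, against 2.52 ± 0.31 in mutant libraries (SD, n = 3). NF-YC12 over NF-YB1 was 8.61 ± 3.80 and 5.73 ± 1.51 (SD, n = 3). No test was run on these ratios, and the share of other gene pairs that stand apart in this way was not counted. On TPM 52.6% of tested genes were lower in the mutant without overlap. NF-YC12 (-1.03) lay near the median of all genes (-0.86). Ratios of the NAC genes to many other genes may thus stand apart as well, and the contrast is not shown to be particular to NF-Y genes.

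**Figure D2:**
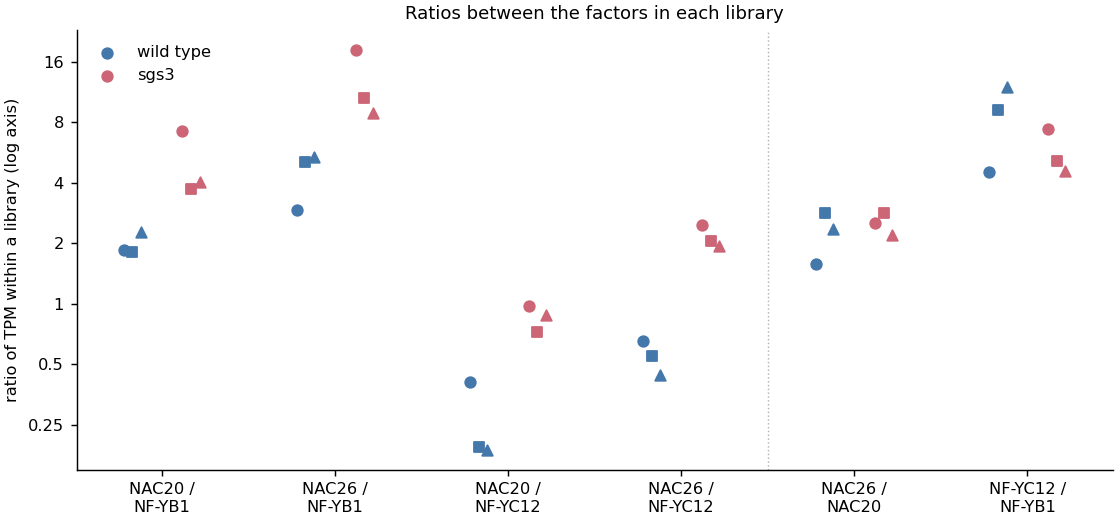
Ratio of TPM between pairs of factors within each library (log axis), wild type in blue and sgs3 in red, with symbols for replicates 1, 2 and 3. To the left of the dotted line each NAC to NF-Y ratio is higher in all 3 mutant libraries than in any wild-type library, and to its right the ratios within a family overlap.

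Both NAC genes were among the most abundant NAC transcripts of the grain. Of 123 genes described as NAC proteins in the deposited annotation, 37 were tested. NAC26 ranked 3 in all 6 libraries, and NAC20 ranked 4 or 5. The share of NAC26 in the summed TPM of the family, which also does not depend on scaling between libraries, was 10.9%, 10.8% and 9.79% in wild-type libraries, against 18.8%, 18.1% and 19.5% in the mutant. That of NAC20 ran from 3.83% to 6.84% in the wild type and from 6.38% to 8.84% in the mutant and overlapped. Of the 35 other NAC genes tested, 2 rose, 4 fell and 29 did not pass on TPM, where 1.55% of all tested genes rose and 26.3% fell. After scaling 2 rose and 1 fell, where 1.61% of all tested genes rose and 1.03% fell. The gene that fell after scaling, LOC_Os12g05990, is also among the 4 that fell on TPM. It met the TPM minimum only through the wild-type libraries, so its call is partly fixed by that filter. The median of their changes was -0.31, and 0.46 scaled.

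NF-YC12 was the most abundant NF-Y transcript in each library. Its share of the summed TPM of the 34 NF-Y genes listed was 22.3%, 40.2% and 38.1% in wild-type replicates 1, 2 and 3. In the mutant it was 27.2%, 25.3% and 28.7%, which lay within the wild-type range. The summed TPM of the family was between 1283 and 1809 in wild-type libraries, against between 757 and 960 in the mutant. NF-YB1 ranked between 5 and 9, with 3.16% to 6.27% of the family's TPM over all libraries. Of the 21 other NF-Y genes tested, 4 fell, none rose and 17 did not pass on TPM. Their median log2 fold change was -1.01, and 0.05 after scaling. NF-YC12 (-1.03) lay next to that median, and NF-YB1 (-0.52) lay above it. By subunit, 0 of 9 tested A genes, 1 of 5 B genes and 3 of 9 C genes fell, where 26.3% of all tested genes fell.

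The 4 NF-Y genes that fell were chosen by that call. LOC_Os09g30310 and LOC_Os08g38780, both annotated as C subunits, fell by 1.36 (SE 0.37, limma adjusted p = 0.0436) and by 1.41 (SE 0.45, limma adjusted p = 0.0496) on the log2 scale. LOC_Os05g23910, like NF-YC12 described only by its similarity to an Arabidopsis C subunit, had -1.13 (SE 0.36, limma adjusted p = 0.0487). LOC_Os06g17480, annotated as a homolog of LEAFY COTYLEDON 1-LIKE, an Arabidopsis B subunit of the embryo, measured 84.48, 9.69 and 10.25 TPM in wild-type libraries, against 0.05, 0 and 6.9 TPM in mutant libraries (log2 fold change -3.43, limma adjusted p = 0.0444). Wild-type replicate 1 was far above the others for that gene, and the log2 fold change was -2.44 without it (limma adjusted p = 0.0737). Over the 6 fits that leave out a library it ran from -4.41 to -2.44. None of these 4 passed after scaling, and each passed in 2 of the 6 fits that leave out a library. The nearest NF-YB gene to NF-YB1, LOC_Os02g49370, shares the LEAFY COTYLEDON 1-LIKE annotation, and no protein-coding gene lies between them in RefSeq's ASM3414082v1. It measured 10.89, 0.89 and 0.69 TPM in wild-type libraries, against 0.18, 0 and 0.74 TPM in mutant libraries, too low to be tested.

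**Figure D3:**
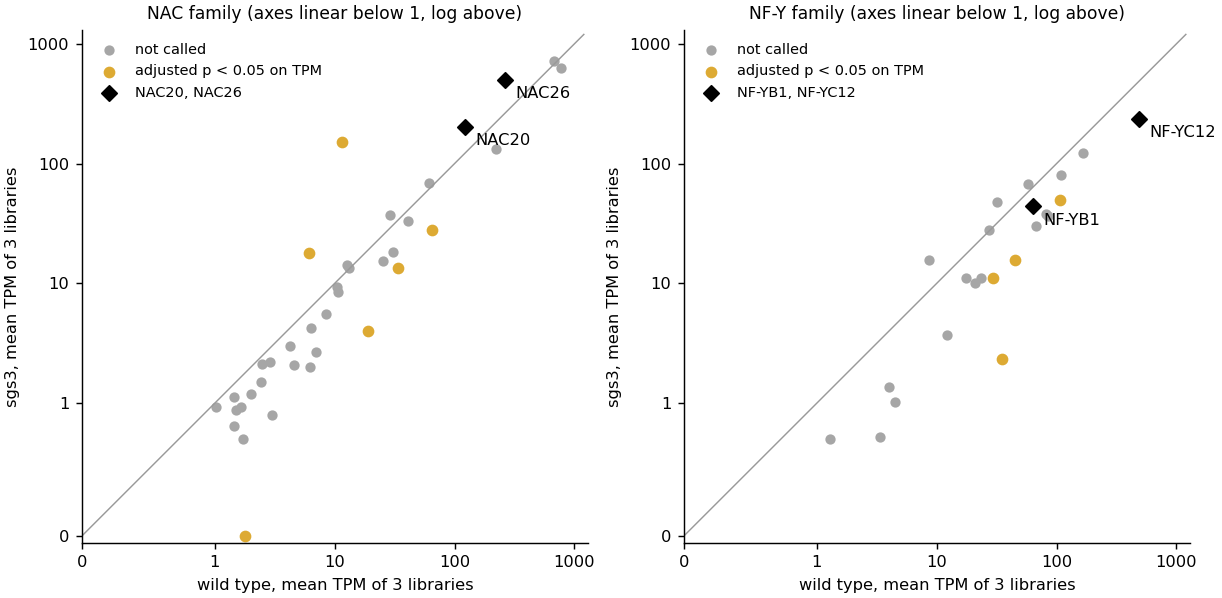
Mean TPM of 3 wild-type libraries (horizontal) against 3 sgs3 libraries (vertical) for the 37 tested NAC genes and the 23 tested NF-Y genes, with axes linear below 1 and logarithmic above; the line marks equal levels. Diamonds are the 4 factors, gold points passed limma's test on TPM, and NAC20 and NAC26 lie above the line while NF-YB1 and NF-YC12 lie below it.

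Storage and starch genes linked to the NAC pair in rice were described from a list of 9, of which 8 are analysed here. The list does not separate direct targets of the pair from other genes. None passed limma's test on either scale, and 1 of the 8 on TPM and 3 of the 8 after scaling had an unadjusted p under 0.05, against 51.5% and 32.9% of all tested genes. The median of their changes, 0.44 on TPM and 1.54 scaled, stood against -0.86 and -0.012 for all tested genes. Of the 8 genes 4 are also starchy endosperm markers (glutelin A1, alpha-globulin, starch branching enzyme 1 and the small subunit 2 of ADP-glucose pyrophosphorylase), so this list is not separate from the marker difference between libraries. The 5 markers had medians of 0.48 and 1.58. By log2 fold change on TPM, 6 of the 8 were above 0, and after scaling all 8 were. Glutelin B4 (LOC_Os02g16830), a storage protein, measured 169.19, 3810.76 and 2827.35 TPM in wild-type libraries, against 8389.85, 7239.51 and 8464.47 TPM in mutant libraries (log2 fold change 2.71, SE 1.09, limma adjusted p = 0.0789). Wild-type replicate 1 was far below the other libraries. Leaving it out gave 1.29 (limma adjusted p = 0.0612), and leaving out wild-type replicate 2 gave 3.53, which passed (adjusted p = 0.0254). For glutelins B5 (LOC_Os02g16820) and A1 (LOC_Os01g55690) that library was also lowest, and the log2 fold changes of 2.63 (SE 1.21) and 1.63 (SE 0.99) did not pass (limma adjusted p = 0.107 for B5 and 0.199 for A1). Without wild-type replicate 1 they were 1.11 for B5 and 0.67 for A1, and without wild-type replicate 2 they were 3.57 for B5, which passed (limma adjusted p = 0.0330), and 2.18 for A1. The share of all tested genes that pass without wild-type replicate 2 is not given here, so these calls show nothing particular to glutelins. Glutelin copies share a family, and reads may be split among them.

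The other genes of that list had smaller fold changes than the 3 glutelins. Starch branching enzyme 1 (LOC_Os06g51084), which makes the branches of amylopectin, measured 1578, 2801 and 1945 TPM in wild-type libraries, against 3123, 3942 and 3059 TPM in mutant libraries. The groups did not overlap, and the difference of 0.71 did not pass (SE 0.51, limma adjusted p = 0.270). Soluble starch synthase 1 (LOC_Os06g06560), which extends short glucan chains, had -0.31 (SE 0.38, limma adjusted p = 0.515). The small subunit 2 of ADP-glucose pyrophosphorylase (LOC_Os08g25734), the enzyme that supplies ADP-glucose, had 0.08 (SE 0.48, limma adjusted p = 0.905). Its large subunit 2 (LOC_Os01g44220) had -0.51 (SE 0.51, limma adjusted p = 0.417). Alpha-globulin (LOC_Os05g41970), a storage protein, had 0.17 (SE 0.81, limma adjusted p = 0.869).

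For the NF-Y subunits the list held 6 genes. SUT3 (LOC_Os10g26470), a sucrose transporter, was listed at 0 in all libraries except mutant replicate 2 (0.15 TPM) and was not tested. Of the 5 tested genes 1 fell and none rose, where 26.3% of all tested genes fell, and the median change was -0.61 on TPM and 0.45 scaled. The gene that fell was FLO6 (LOC_Os03g48170), a protein needed for normal starch granules, with 10.39, 2.62 and 4.82 TPM in wild-type libraries, against 0.25, 0.7 and 2.69 TPM in the mutant. Its groups overlapped at mutant replicate 3 and wild-type replicate 2. The log2 value of FLO6 fell by 1.65 ± 0.53 (SE), which passed limma's test (adjusted p = 0.0498). Scaled, the value of -0.99 did not pass (limma adjusted p = 0.130). It passed in 2 of the 6 fits that leave out a library.

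Sucrose transporter SUT1 (LOC_Os03g07480), which loads sugar into the filling grain, measured 54.82, 25.76 and 36.88 TPM in wild-type libraries, against 15.1, 39.01 and 23.49 TPM in mutant libraries, with overlapping groups. SUT4 (LOC_Os02g58080) measured 3.89, 6.07 and 9.77 TPM in wild-type libraries, against 2.95, 2.99 and 3.48 TPM in mutant libraries (log2 fold change -0.80, SE 0.37, limma adjusted p = 0.113). Wx (LOC_Os06g04200), the granule-bound starch synthase that makes amylose and the remaining starchy endosperm marker, had 0.48 (SE 0.52, limma adjusted p = 0.452). Glutamine synthetase 1;3 (LOC_Os03g50490), an enzyme of nitrogen assimilation, had 0.24 (SE 0.55, limma adjusted p = 0.720). Directions on TPM and after scaling differed for soluble starch synthase 1, the large subunit 2, SUT1 and SUT4.

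Of 6 other endosperm regulators none passed limma's test on either scale, while 0 of the 6 on TPM and 3 of the 6 after scaling had an unadjusted p under 0.05 (51.5% and 32.9% of all tested genes). The median change was -0.25 on TPM and 0.61 scaled. RISBZ1 (LOC_Os07g08420), a bZIP activator of storage protein genes, measured 104, 126 and 139 TPM in wild-type libraries, against 104, 141 and 110 TPM in mutant libraries. The groups overlapped. The Dof gene annotated PBF (LOC_Os02g15350), of a type that binds the prolamin box, measured 561.94, 557.68 and 546.54 TPM in wild-type libraries, against 318.11, 401.4 and 346.42 TPM in mutant libraries. It was lower without overlap on TPM (log2 fold change -0.65, SE 0.37, limma adjusted p = 0.177), as was NF-YC12, and its direction turned after scaling (0.44). LOC_Os04g35010, annotated as a bHLH factor, had -0.30 and LOC_Os08g41030, annotated as an ethylene-responsive factor, had -0.79 (limma adjusted p = 0.549 and 0.174). The AP2-like gene LOC_Os05g03040 had -0.20 (limma adjusted p = 0.701). LOC_Os04g55230, annotated as protein TSS, had 0.39 (limma adjusted p = 0.365), and its mutant libraries were above the wild type without overlap.

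**Figure D4:**
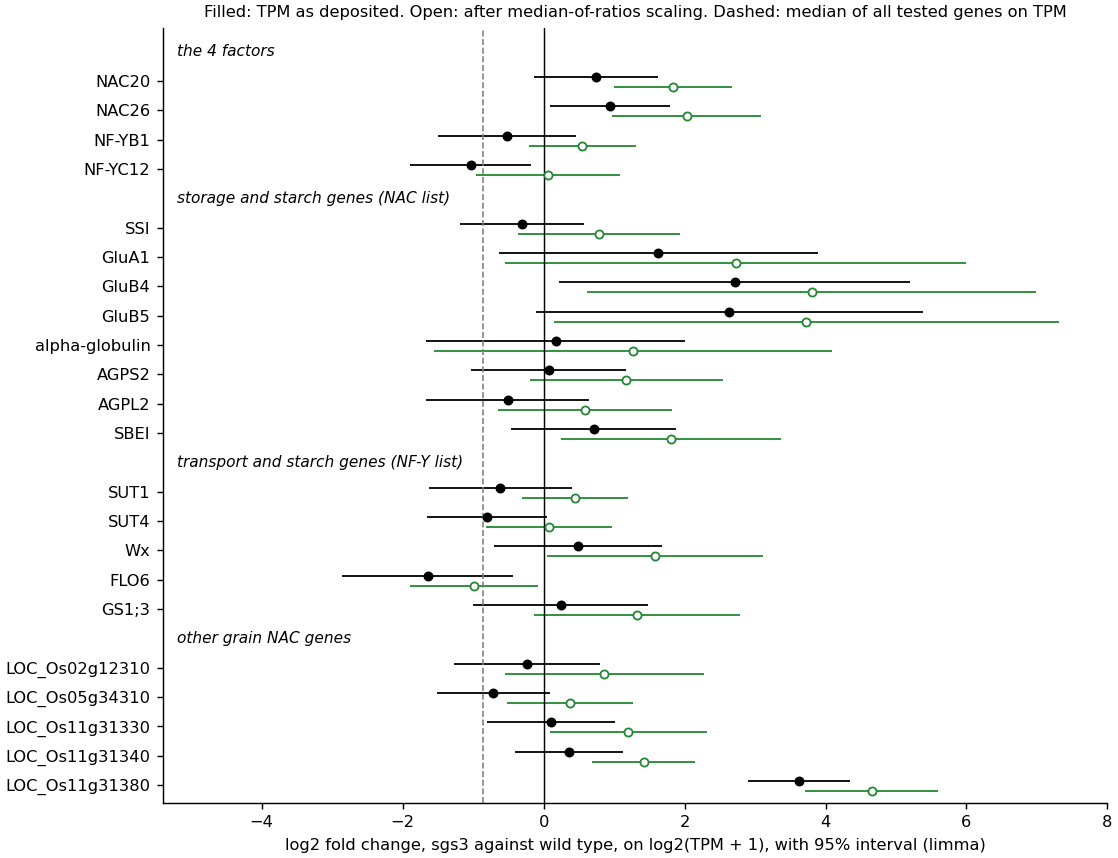
Log2 fold change of sgs3 against wild type on log2(TPM + 1), with limma's 95% interval (n = 3 libraries a group), for the 4 factors, 13 tested genes of the storage, starch and transport lists and 5 other grain NAC genes. Filled points are TPM as deposited, open points are after median-of-ratios scaling, and the dashed line is the median of all tested genes on TPM (-0.86); NAC20 and NAC26 lie right of 0 on both scales.

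The genes most like each factor were taken by Pearson's r of log2(TPM + 1) over the 6 libraries, among tested genes with a mean of at least 5 TPM and an informative description. These values describe 6 libraries in 2 groups, carry no test, and share each library's total. For NAC20 they were a gene annotated beta-fructofuranosidase, an enzyme that splits sucrose (LOC_Os04g33740, r = 0.90), a gene annotated O-methyltransferase ZRP4 (LOC_Os12g25870, 0.90) and one annotated TBC1 domain family member 5 (LOC_Os08g40620, 0.88). For NAC26 they were Early nodulin-93 (LOC_Os06g04940, r = 0.96), serine carboxypeptidase 2 (LOC_Os05g18604, 0.95) and acyl-CoA oxidase 4 (LOC_Os06g23870, 0.95). All 3 of these were higher in the mutant without overlap, as NAC26 was. LOC_Os06g23870 measured 0.09, 0 and 0 TPM in wild-type libraries, against 69.86, 76.88 and 83.66 TPM in mutant libraries. It met the TPM minimum only through the mutant, and its r reflects the contrast of the 2 groups. NAC26 was abundant in both groups and differed far less. For NF-YB1 they were an F-box/kelch-repeat gene (LOC_Os10g21930, r = 0.99), beta-galactosidase 8 (LOC_Os05g46200, 0.97) and a deSI-like gene (LOC_Os03g01130, 0.97). On TPM the groups overlapped in all 3, as for NF-YB1. After scaling LOC_Os10g21930 and LOC_Os05g46200 were higher in the mutant without overlap, which NF-YB1 was not. For NF-YC12 they were the GTPase-activating protein AGD12 (LOC_Os02g10480, r = 0.99), acetolactate synthase 1 (LOC_Os02g30630, 0.99) and a Copia polyprotein gene (LOC_Os09g29810, 0.98). All 3 were lower in the mutant without overlap on TPM and overlapped after scaling, as NF-YC12 did. Likeness was measured on TPM, so these directions follow from the choice.

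The deposited splicing tables, which list 12346 events of 5 kinds in 6120 genes, held no event in NAC20, NAC26, NF-YB1 or NF-YC12. Of the 34 NF-Y genes 9 had an event, 20 events in all, and 0 of these had an FDR under 0.05 in the authors' deposited table. Of the 123 NAC genes 10 had an event, 22 in all, and 1 had an FDR under 0.05 in the authors' deposited table. Over all genes the authors' deposited table had 798 such events of 12346. In the NAC list of 9 there were 6 such events of 36, in 2 genes. The NF-Y list had 2 of 8, in 1 gene, and the 6 other regulators 3 of 6, in 3 genes. The 5 other grain NAC genes had 0 of 2. Several events can come from 1 gene, and any link to TPM was not tested.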

How the data were processed

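Per the labels' protocols, libraries were made from total RNA of grains with a SMARTer mRNA kit. Per the submitters' processing notes the tools were DESeq2 1.12.4, StringTie, RSEM, Bowtie2 and HISAT2 2.1.0, with roles, build and annotation not given in the sources used here. The gene table deposited by the authors holds TPM, with no scaling between libraries recorded; sums per library lay between 967526 and 994306. The authors' deposited splicing tables give an FDR (an adjusted p-value) per event. Their 30 columns of per-library splicing values were not used, because the 4 factors have no event.

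Genes with at least 1 TPM in at least 3 libraries were tested with limma 3.58.1 (R 4.3.3, mean-variance trend) on log2(TPM + 1), mutant against wild type, with Benjamini-Hochberg adjustment over all 16352 genes and a threshold of 0.05. The pseudocount understates changes of low genes. Median-of-ratios size factors were taken over genes above 0 in every library. NAC and NF-Y families were taken by words in the deposited descriptions. Named genes were the 4 factors, the listed genes, NF-Y genes that passed, the 3 NAC genes with the smallest p, and the 3 most correlated genes per factor; others are said to be chosen after their values were seen. The factors and lists were chosen with earlier results of these data known. The test was also run on simulated data. Those had no shift shared by the genes of a library, so that run does not cover the shift seen here. Alternatives covered scaling, storage protein genes left out, pseudocount, filters, variance trend, a replicate block and each library left out. 1 listed gene, sequences and genome coordinates are not used here. Python 3.11.15 with pandas 2.3.3 and matplotlib 3.10.9 made tables and figures.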

Additional observations from a re-analysis of the deposited data

How the results depend on the processing

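NAC20 and NAC26 stayed above 0 under all 20 alternatives each (0.56 to 2.02 and 0.81 to 2.40 on the log2 scale), and most adjusted p-values missed the threshold. The filters, the variance trend and the replicate block leave a gene's fold change as it was, so those settings could not turn a sign. All alternatives use the same libraries and are not independent of each other. NAC20 passed after scaling (1.83). With each library left out after scaling, NAC20 ranged from 1.58 to 2.02 and NAC26 from 1.77 to 2.40. NAC20 passed without mutant replicate 3 (1.93). NAC26 passed without mutant replicate 3 (2.22) and without wild-type replicate 2 (2.40). The share of all tested genes that pass in these scaled fits is not given here, so these calls show nothing particular to the NAC genes. Without a mean-variance trend NAC26 (0.94) and NF-YC12 (-1.03) passed, and the share of all tested genes that pass in that setting is not given here. With storage protein genes left out, NF-YB1 (-0.12) and NF-YC12 (-0.62) kept their direction on TPM. In that setting NAC20 had 1.16 and NAC26 1.35, and none of the 4 passed (limma adjusted p = 0.0612 for both NAC genes). After scaling NF-YB1 had 0.55 and NF-YC12 0.058, against the direction on TPM, and with each library left out they ranged from 0.24 to 0.80 and from -0.28 to 0.42. NF-YB1 then gave 0.62 (wild-type replicate 1 left out), 0.80 (wild-type 2), 0.24 (wild-type 3), 0.60 (mutant 1), 0.53 (mutant 2) and 0.52 (mutant 3). NF-YC12 was above 0 at 0.42 (wild-type 2), 0.035 (wild-type 3), 0.099 (mutant 2) and 0.17 (mutant 3). On TPM with each library left out none of the 4 passed.

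The count of genes called, 4548, was 432 after scaling, 370 with storage protein genes left out, 107 without a filter, 132 with a replicate block, and between 94 and 8124 with each library left out. After scaling the counts were 1 for other NF-Y genes, 3 for other NAC genes and 0 for the NF-Y list. The replicate numbers did not pair the libraries: deviations of same-numbered libraries from their group means correlated at -0.53, 0.21 and -0.09. With the replicate block the fold changes of the 4 factors were the same and none passed on TPM; after scaling with the block NF-YB1 and NF-YC12 again had 0.55 and 0.058, and neither NAC gene passed (adjusted p = 0.119 and 0.131).

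Signs of uncalled genes turned after scaling for soluble starch synthase 1 (0.79), the large subunit 2 (0.59), SUT1 (0.45), SUT4 (0.073), LOC_Os04g35010 (0.78), LOC_Os08g41030 (0.29), RISBZ1 (1.03), the PBF gene (0.44), LOC_Os05g03040 (0.45), LOC_Os02g12310 (0.86), LOC_Os05g34310 (0.37), LOC_Os10g21930 (0.59), LOC_Os05g46200 (0.79) and LOC_Os03g01130 (0.61). With storage protein genes left out they turned for soluble starch synthase 1 (0.11), LOC_Os04g35010 (0.11), RISBZ1 (0.36), LOC_Os05g03040 (0.074), LOC_Os02g12310 (0.18), LOC_Os05g46200 (0.13) and LOC_Os03g01130 (0.057). With single libraries left out, values crossed 0 for the small subunit 2 (-0.072 to 0.18), alpha-globulin (-0.22 to 0.44), glutamine synthetase 1;3 (-0.11 to 0.88), LOC_Os04g35010 (-0.53 to 0.041), RISBZ1 (-0.19 to 0.040), LOC_Os05g03040 (-0.59 to 0.18), LOC_Os02g12310 (-0.44 to 0.073) and LOC_Os11g31330 (-0.014 to 0.18). The cause was not tested. Splicing alternatives were not run, since the 4 factors have no event.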

Other observations

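Among 5 other NAC genes known from rice grains, LOC_Os11g31380, described in the deposited annotation as a No apical meristem protein, rose most. It measured 11.87, 12.81 and 9.74 TPM in wild-type libraries, against 158.8, 167.86 and 130.27 TPM in mutant libraries (log2 fold change 3.62, SE 0.32, limma adjusted p = 9.14e-04). It passed after scaling (4.65, adjusted p = 0.00139) and with any 1 library left out. The other risen NAC gene, LOC_Os11g31360, has a nearby locus number and was named after its values were seen. It measured 4.66, 6.2 and 7.36 TPM in wild-type libraries, against 12.71, 15.68 and 24.95 TPM in mutant libraries (log2 fold change 1.37, limma adjusted p = 0.0436), and it passed on TPM in 1 of the 6 fits that leave out a library. After scaling it had 2.33 (SE 0.30) and passed (limma adjusted p = 0.00943). NAC genes LOC_Os11g31330 and LOC_Os11g31340, in the same stretch of locus numbers, had 0.11 and 0.36 (limma adjusted p = 0.834 and 0.386). How alike these copies are was not measured, and reads may be split among them. The remaining grain NAC genes, LOC_Os02g12310 and LOC_Os05g34310, had -0.23 and -0.72 (limma adjusted p = 0.677 and 0.125).

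The 4 NAC genes that fell on TPM were LOC_Os12g05990, LOC_Os01g71790, LOC_Os01g15640 and LOC_Os05g35170. The first 2 were named by the rule of the smallest p, which itself uses these values. The last 2 fall outside that rule and were named because they passed, after their values were seen. After scaling these 2 overlapped between groups and did not pass. LOC_Os01g15640 then had -0.20 and LOC_Os05g35170 -0.14 (limma adjusted p = 0.667 and 0.771). Each passed on TPM in 2 of the 6 fits that leave out a library. LOC_Os12g05990, annotated NAC domain-containing protein 90, measured 3.11, 1 and 1.27 TPM in wild-type libraries. Every mutant library lists it at 0, so it met the 1 TPM minimum only through the wild-type libraries. Its TPM was low, and its call is partly fixed by that filter. It also passed after scaling (limma adjusted p = 0.0374), and on TPM in 2 of the 6 fits that leave out a library. LOC_Os01g71790 measured 32.88, 8.96 and 14.51 TPM in wild-type libraries, against 2.77, 3.37 and 5.75 TPM in mutant libraries (limma adjusted p = 0.0436), and it did not pass once scaled (adjusted p = 0.0936). The NF-YA gene LOC_Os03g29760, also named after its values were seen, was the NF-Y gene that rose after scaling (1.77, SE 0.23, limma adjusted p = 0.00999). Its TPM was 10.66, 8.05 and 7.35 in wild-type libraries, against 11.62, 16.25 and 19.17 in mutant libraries, without overlap, and it did not pass (adjusted p = 0.0976).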
